A study of Homo sapiens with 6 samples.

Results

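The genes described here are 9 genes of HLA class I antigen presentation, chosen by symbol from the 34811 genes of the count table: the heavy chain genes HLA-B, HLA-C and HLA-E, the light chain gene B2M, the peptide transporter genes TAP1 and TAP2, the tapasin gene TAPBP and the immunoproteasome genes PSMB8 and PSMB9. RNA-seq compared OV3/COX1KD with OV3/SCR, which are stable clones of OVCAR-3, an established human ovarian cancer cell line, each grown in RPMI-1640 with serum. OV3/COX1KD cells carried a pRS HuSH-29 plasmid with an shRNA against COX-1, the enzyme that starts prostaglandin synthesis, and OV3/SCR cells carried the same plasmid with a scrambled shRNA and had wild-type COX-1. Each condition was 1 clone sampled at 3 independent passages, so clone and knockdown cannot be told apart and the spread between replicates is that between passages. All 9 genes passed the filter on low counts.

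HLA class I molecules show peptides from inside the cell to cytotoxic T cells and NK cells. Proteasomes cut cytosolic proteins, and PSMB8 and PSMB9 are catalytic subunits that replace constitutive ones after interferon exposure. The TAP1-TAP2 transporter carries the peptides into the endoplasmic reticulum, where tapasin, calreticulin and PDIA3 hold an empty heavy chain with β2-microglobulin until a peptide binds. Transcription of many of these genes is driven by NLRC5, IRF1 and interferon signaling, and tumor cells often lower it.

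COX-1 knockdown cells had less mRNA of PSMB9, TAP1, PSMB8 and HLA-C and more of TAPBP, while HLA-B, HLA-E, B2M and TAP2 did not pass the test. Of the 9 genes, 4 were lower and 1 was higher in OV3/COX1KD at an edgeR FDR under 0.01, against 22.1% lower and 25.8% higher among all 17309 tested genes. The median log2 fold change (log2FC, OV3/COX1KD over OV3/SCR) of the 9 genes was -0.16 and that of all tested genes -0.0087. In 8 of the 9 genes all libraries of one condition lay below all of the other, which held for 63.2% of tested genes. PSMB9 alone was lower by more than a fold change of 2.5, as were 2.34% of tested genes. No test of the 9 genes as a list was made. In these bulk samples fewer expressing cells and less RNA per cell cannot be told apart.

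Library totals lay between 25291505 and 27391538 counts, and levels are given as CPM, counts relative to library size after TMM scaling. The targeted gene PTGS1 had 713, 658 and 641 counts in OV3/SCR and 456, 486 and 501 in OV3/COX1KD, 73.3% of the control level (log2FC -0.45, standard error, SE, 0.057). Of 8 epithelial ovarian carcinoma markers 7 were tested, and all of them differed between the clones at an edgeR FDR under 0.01. In OV3/COX1KD 5 were higher and 2 lower, against 25.8% higher and 22.1% lower among all tested genes. The markers were not tested as a list. PAX8 had a log2FC of -0.76, KRT7 -0.14, MUC16 1.36, KRT18 0.75 and KRT8 0.65, while ESR1 had 2 counts or fewer in each library. OV3/COX1KD replicate 2 stood apart from the other knockdown libraries, since its counts differed from theirs by a chi-square of 4.92 and 6.40 per degree of freedom, against 1.91 between those. Without it 4852 genes were higher and 4137 lower, against 4473 and 3820 with all libraries. Leukocytes carry abundant class I molecules, and the 9 leukocyte markers together had 48 to 57 counts in OV3/SCR and 31 to 52 in OV3/COX1KD, with CSF1R at 0 in all 3 OV3/COX1KD libraries. Fibroblast markers summed to 274 to 289 counts in OV3/SCR and 166 to 180 in OV3/COX1KD, most of them from COL1A1, and endothelial markers to 64 to 86 and 72 to 95. The part of such reads in the results was not tested.

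**Figure D1:**
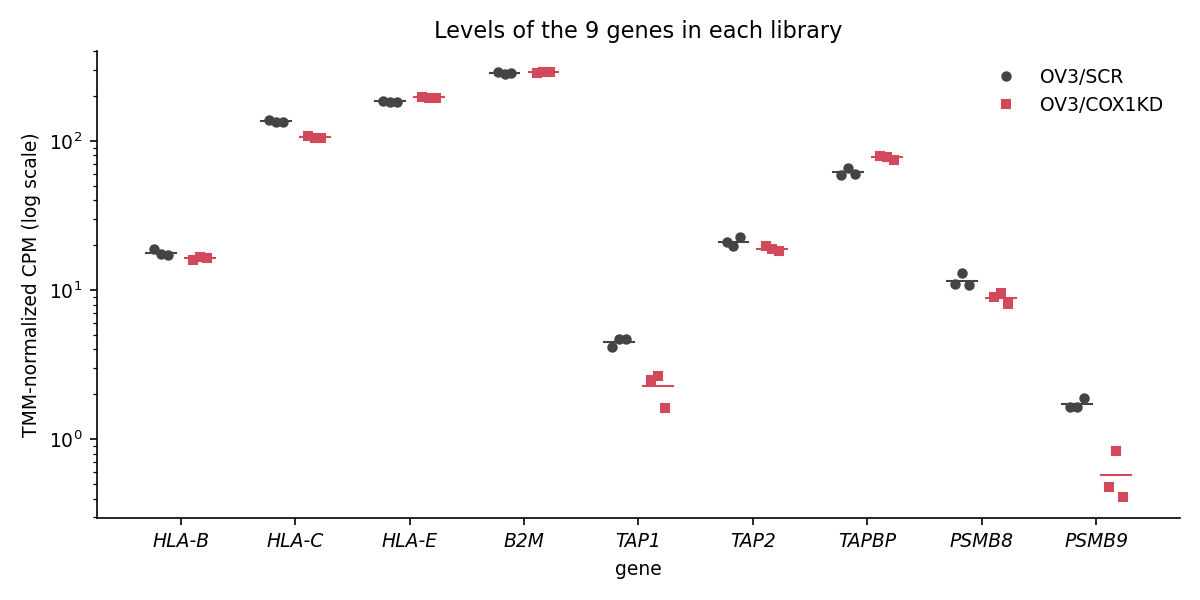
TMM-normalized CPM (log axis) of the 9 genes in each library, with circles for the 3 OV3/SCR and squares for the 3 OV3/COX1KD libraries and lines at the means. B2M lay at 280 to 290 CPM in all 6 libraries, and the 3 OV3/COX1KD libraries of PSMB9 and TAP1 lay below all OV3/SCR libraries.

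Of the 9 genes, 8 lie in the major histocompatibility complex on chromosome 6 and B2M lies on chromosome 15. TAP2, PSMB8, TAP1 and PSMB9 form one block (chromosome 6 of GRCh37, 32789610 to 32827628). TAP1 and PSMB9 are arranged head to head, and their RefSeq start sites are 488 bases apart in GRCh38.p14. RefSeq promoter windows, 250 bases before to 50 after the start, were found for 8 of the 9 genes, the exception being HLA-E. The windows below are those of TAP1 and PSMB9, which had the largest falls, of TAPBP, the gene that rose, of B2M, the gene with the smallest fold change, and of HLA-C, the heavy chain gene that fell. They lie at chr6:32853655-32853954 (minus strand), chr6:32853942-32854241 (plus), chr6:33314029-33314328 (minus), chr15:44711267-44711566 (plus) and chr6:31272043-31272342 (minus) of GRCh38.p14. Capitals mark matches on either strand to GAAANNGAAA (the core of an interferon-stimulated response element), TTCNNNGAA (a STAT site), GGGANNNNCC (an NF-kB-type site) or TGACGT (the core of a cAMP response element).
TAP1: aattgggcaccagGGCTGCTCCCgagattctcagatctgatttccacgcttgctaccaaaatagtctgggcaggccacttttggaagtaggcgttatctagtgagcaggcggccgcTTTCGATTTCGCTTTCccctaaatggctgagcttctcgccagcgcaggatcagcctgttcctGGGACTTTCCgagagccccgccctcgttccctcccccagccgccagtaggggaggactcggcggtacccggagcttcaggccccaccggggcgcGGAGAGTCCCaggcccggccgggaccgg
PSMB9: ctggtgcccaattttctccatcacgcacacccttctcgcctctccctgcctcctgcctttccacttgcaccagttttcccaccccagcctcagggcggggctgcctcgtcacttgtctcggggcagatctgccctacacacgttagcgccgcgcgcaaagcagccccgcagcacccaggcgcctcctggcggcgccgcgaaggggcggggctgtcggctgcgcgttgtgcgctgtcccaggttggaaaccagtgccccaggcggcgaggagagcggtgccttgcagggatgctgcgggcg
TAPBP: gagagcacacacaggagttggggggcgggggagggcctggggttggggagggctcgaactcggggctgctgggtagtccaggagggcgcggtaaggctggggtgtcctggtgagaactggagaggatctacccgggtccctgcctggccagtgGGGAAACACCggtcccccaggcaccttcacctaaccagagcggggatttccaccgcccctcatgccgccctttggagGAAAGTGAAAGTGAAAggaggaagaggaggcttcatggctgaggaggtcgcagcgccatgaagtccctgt
B2M: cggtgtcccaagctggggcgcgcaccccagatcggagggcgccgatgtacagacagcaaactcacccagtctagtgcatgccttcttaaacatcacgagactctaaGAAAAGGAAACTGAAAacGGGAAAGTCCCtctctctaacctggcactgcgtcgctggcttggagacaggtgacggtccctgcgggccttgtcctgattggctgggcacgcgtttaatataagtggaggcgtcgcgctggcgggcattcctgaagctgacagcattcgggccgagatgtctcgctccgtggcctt
HLA-C: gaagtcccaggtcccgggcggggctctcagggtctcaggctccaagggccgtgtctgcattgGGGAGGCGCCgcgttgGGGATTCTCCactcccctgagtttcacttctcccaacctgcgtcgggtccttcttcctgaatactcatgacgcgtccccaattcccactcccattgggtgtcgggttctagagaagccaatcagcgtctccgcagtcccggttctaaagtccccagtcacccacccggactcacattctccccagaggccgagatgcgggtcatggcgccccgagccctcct

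The interferon-stimulated response element core occurred in 3.57% of 35116 RefSeq promoter windows, the STAT site in 7.66%, the NF-kB-type site in 25.6% and the cAMP response element core in 7.98%. In the TAP1 window the response element core matched at -134 to -125 and at -128 to -119 from the start, 2 matches that overlap, and NF-kB-type matches lay at -237 to -228, -72 to -63 and 23 to 32. The TAPBP window had overlapping response element cores at -20 to -11 and -14 to -5. The B2M window had them at -144 to -135 and -138 to -129, next to overlapping NF-kB-type matches that begin at -126. The HLA-C window held NF-kB-type matches at -188 to -179 and -172 to -163, and the HLA-B window overlapping ones at -177 to -168 and -176 to -167. Another NF-kB-type match lay at -97 to -88 in the TAPBP window. The PSMB9 window held none of the 4 motifs. TAP2 held the interferon-stimulated response element core at -58 to -49, and PSMB8 held it at -4 to 6 in the second of its windows. That window also had a STAT site at -65 to -57, and the first PSMB8 window had a cAMP response element core at -69 to -64. A second TAP1 window held a STAT site at -189 to -181. The 5 genes with the response element core in a window had log2 fold changes of 0.33 (TAPBP), 0.017 (B2M), -0.16 (TAP2), -0.38 (PSMB8) and -0.99 (TAP1). The PSMB9 window shares 13 bases with that of TAP1, so the cores between their start sites, 488 bases apart, fall in the TAP1 window alone. A match of letters is not a measured binding site, and sites outside the windows or with other letters were not searched.

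The immunoproteasome subunit genes PSMB8 and PSMB9 were both lower in OV3/COX1KD. PSMB9 (ENSG00000240065, chromosome 6 of GRCh37 from 32811913 to 32827628) was read 44, 43 and 49 times in OV3/SCR and 12, 21 and 11 times in OV3/COX1KD, with no overlap. Mean levels were 1.73 ± 0.142 CPM in OV3/SCR and 0.576 ± 0.229 in OV3/COX1KD (SD, n = 3 each), 33.2% of the control and a log2FC of -1.59 (SE 0.26, edgeR FDR = 3.0e-05). It had the lowest counts and the largest fold change of the 9 genes. The counts were low, and leaving out 1 library at a time gave log2FCs between -1.94 and -1.39, the former without OV3/COX1KD replicate 2.

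PSMB8 (ENSG00000204264, chromosome 6 from 32808494 to 32812456) had 292, 340 and 279 counts in OV3/SCR and 228, 239 and 216 in OV3/COX1KD. The groups did not overlap, and the level went from 11.6 ± 1.26 CPM (SD, n = 3) to 8.90 ± 0.728 (SD, n = 3), a log2FC of -0.38 (SE 0.092, edgeR FDR = 0.00136). The call was lost without OV3/SCR replicate 2, the highest library, with a log2FC of -0.29 (edgeR FDR = 0.0169). It was also lost without OV3/COX1KD replicate 3, the lowest, at -0.32 (edgeR FDR = 0.0110).

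The partners that these subunits replace did not pass the test. PSMB5, the constitutive partner of PSMB8, had a log2FC of -0.055 (SE 0.036, edgeR FDR = 0.195), and PSMB6, the partner of PSMB9, one of 0.11 (SE 0.039, edgeR FDR = 0.0259). PSMB10, the induced subunit outside the complex on chromosome 16, had 154, 151 and 145 counts in OV3/SCR and 141, 142 and 139 in OV3/COX1KD, a log2FC of -0.061 (SE 0.10, edgeR FDR = 0.628). Its partner PSMB7 had one of 0.014 (SE 0.034, edgeR FDR = 0.750), a direction that turned with total count scaling, with at least 10 counts in every library and without OV3/COX1KD replicate 3. With total count scaling PSMB5 fell, at a log2FC of -0.13 (edgeR FDR = 0.00355).

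Library size cancels in the ratio of an induced to a constitutive subunit within a library. For each PSMB9 read there were 38.1, 37.2 and 34.7 PSMB6 reads in OV3/SCR and 141, 83.4 and 164 in OV3/COX1KD, so every knockdown library held the fewer PSMB9 reads. The log2 ratio of counts was -5.20 ± 0.0701 in OV3/SCR and -6.96 ± 0.511 in OV3/COX1KD (SD, n = 3 each), with the larger spread in the knockdown. For each PSMB8 read there were 6.62, 5.62 and 6.99 PSMB5 reads in OV3/SCR and 7.74, 7.51 and 8.78 in OV3/COX1KD. Here too the conditions did not overlap, and the log2 ratios were -2.67 ± 0.164 (SD, n = 3) and -3.00 ± 0.120 (SD, n = 3). The ratio of PSMB10 to PSMB7 overlapped between conditions, with log2 ratios of -5.00 ± 0.0308 (SD, n = 3) and -5.07 ± 0.115 (SD, n = 3). The two-sided exact permutation test over libraries gave p = 0.1 for PSMB9 and PSMB8 and p = 0.5 for PSMB10, or 0.15, 0.15 and 0.5 after Benjamini-Hochberg adjustment over the 3 ratios. With 3 against 3 libraries 0.1 is the smallest p this test can give.

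**Figure D2:**
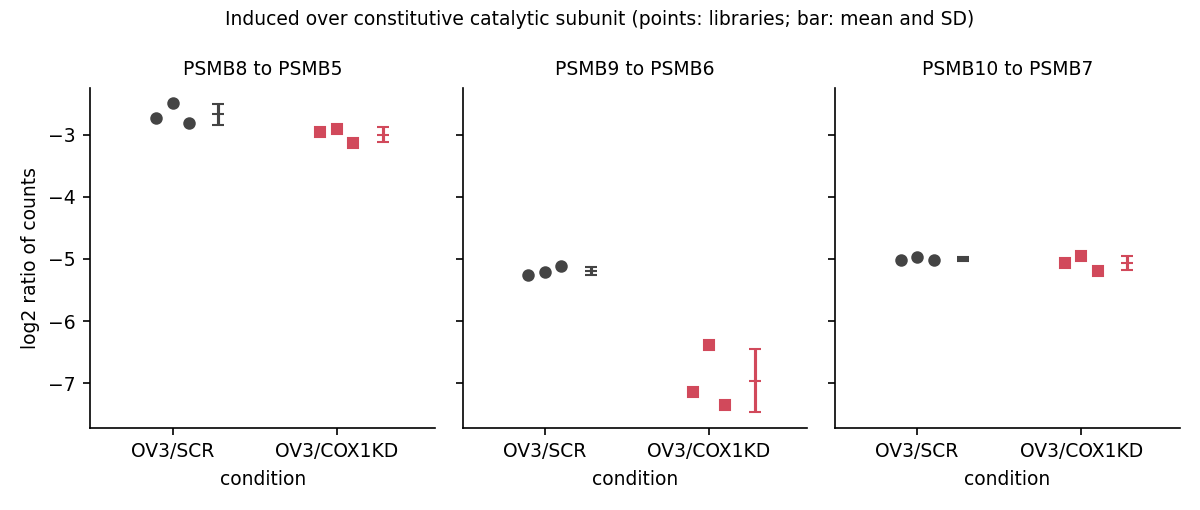
Log2 ratio of counts of each interferon-induced catalytic subunit to its constitutive partner, per library (points) with mean and SD (bars), for OV3/SCR and OV3/COX1KD. The PSMB9 to PSMB6 ratio lay near -5.20 in OV3/SCR and between -7.36 and -6.38 in OV3/COX1KD, while the PSMB10 to PSMB7 ratios overlapped.

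Of the chains of the peptide transporter, TAP1 fell and TAP2 did not pass the test. The difference between their fold changes was not tested. TAP1 (ENSG00000168394, chromosome 6 of GRCh37 from 32812986 to 32821593) was read 110, 122 and 121 times in OV3/SCR and 63, 67 and 43 in OV3/COX1KD. Mean levels were 4.50 ± 0.320 CPM in OV3/SCR and 2.26 ± 0.569 in OV3/COX1KD (SD, n = 3 each), 50.3% of the control and a log2FC of -0.99 (SE 0.16, edgeR FDR = 2.6e-05). OV3/COX1KD replicate 3 was the lowest library for TAP1, as it was for PSMB9 and PSMB8, and without it the log2FC of TAP1 was -0.79. TAP2 (ENSG00000204267, chromosome 6 from 32789610 to 32806516) had 559, 518 and 584 counts in OV3/SCR and 494, 473 and 484 in OV3/COX1KD. The groups of TAP2 did not overlap in CPM, but the log2FC of -0.16 (SE 0.063, edgeR FDR = 0.0312) did not pass the threshold, and passed it with total count scaling, at -0.24 (edgeR FDR = 0.00232). Per TAP1 read there were 5.08, 4.25 and 4.83 TAP2 reads in OV3/SCR and 7.84, 7.06 and 11.3 in OV3/COX1KD, given here without a test.

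TAPBP, the gene of tapasin, which bridges the transporter and the empty class I molecule, was the gene that rose. TAPBP (ENSG00000231925, chromosome 6 from 33267471 to 33282061) had 1582, 1715 and 1558 counts in OV3/SCR and 2009, 1968 and 1975 in OV3/COX1KD. Mean levels were 61.8 ± 3.50 CPM in OV3/SCR and 77.5 ± 2.99 in OV3/COX1KD (SD, n = 3 each), a log2FC of 0.33 (SE 0.044, edgeR FDR = 2.7e-06). The rise lay between 0.25 and 0.37 over all settings tried.

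Among the heavy chains, HLA-C fell, while HLA-B and HLA-E did not pass the test. HLA-C (ENSG00000204525, chromosome 6 of GRCh37 from 31236526 to 31239907), which presents peptides and is a ligand of inhibitory NK cell receptors, had 3694, 3473 and 3488 counts in OV3/SCR and 2719, 2613 and 2801 in OV3/COX1KD. Its level was 136 ± 2.71 CPM (SD, n = 3) against 106 ± 1.97 (SD, n = 3), 78.0% of the control and a log2FC of -0.36 (SE 0.033, edgeR FDR = 1.4e-08). The groups were far apart relative to their spread.

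HLA-B (ENSG00000234745, chromosome 6 from 31321649 to 31334844) had 502, 454 and 442 counts in OV3/SCR and 400, 421 and 436 in OV3/COX1KD, 17.8 ± 0.922 against 16.4 ± 0.454 CPM (SD, n = 3 each) with a log2FC of -0.12 (SE 0.063, edgeR FDR = 0.108). HLA-E (ENSG00000204592, chromosome 6 from 30457286 to 30461971), which presents signal peptides of other class I chains to NK cells, had 4937, 4782 and 4737 counts in OV3/SCR and 4980, 4879 and 5186 in OV3/COX1KD. All its OV3/COX1KD libraries were above all OV3/SCR libraries in CPM, with a log2FC of 0.089 (SE 0.029, edgeR FDR = 0.0130) that missed the threshold. HLA-E passed it without the filter on low counts, at 0.11 (edgeR FDR = 0.00663), and without OV3/COX1KD replicate 2, at 0.10 (edgeR FDR = 0.00134). With total count scaling its log2FC was 0.011 (edgeR FDR = 0.765).

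B2M (ENSG00000166710, chromosome 15 from 45003556 to 45011049), whose product is the light chain shared by all class I molecules, had 7721, 7305 and 7357 counts in OV3/SCR and 7201, 7226 and 7729 in OV3/COX1KD. The groups overlapped, with 285 ± 4.66 CPM (SD, n = 3) against 288 ± 2.00 (SD, n = 3) and a log2FC of 0.017 (SE 0.028, edgeR FDR = 0.632). Its direction was not stable, as total count scaling gave -0.061 (edgeR FDR = 0.0811) and a filter of 10 counts in every library -0.00039.

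**Figure D3:**
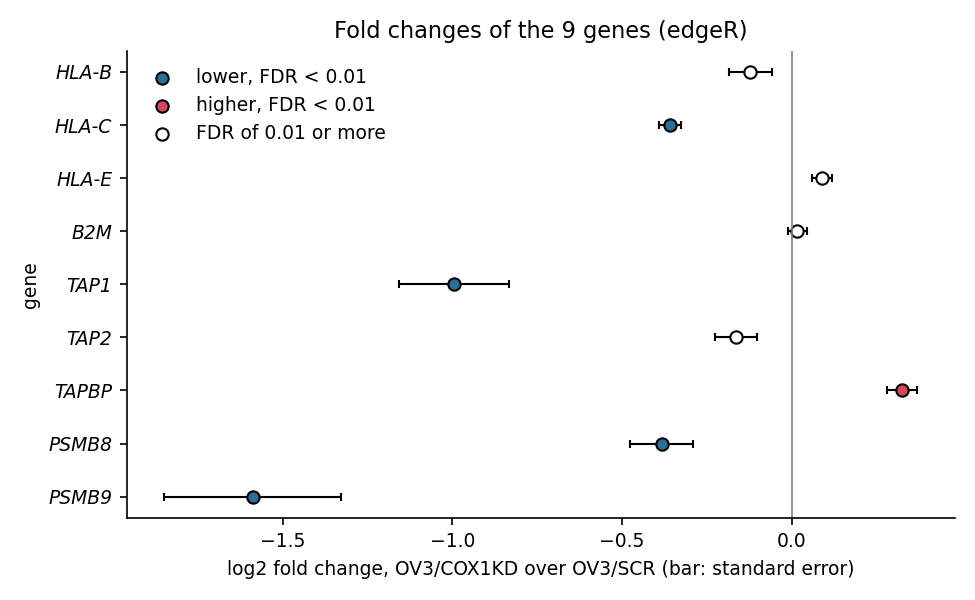
Log2 fold change of OV3/COX1KD over OV3/SCR for the 9 genes (points) with standard errors (bars), filled in blue for genes lower and red for genes higher at an edgeR FDR under 0.01 and open otherwise. PSMB9 and TAP1 lay at -1.59 and -0.99, and the other 7 genes lay between -0.38 and 0.33.

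Levels of different genes were compared per length. Per kb of exon, the order in OV3/SCR from high to low was B2M, HLA-E, HLA-C, TAPBP, HLA-B, PSMB8, TAP2, TAP1 and PSMB9, from 91.3 ± 1.49 CPM per kb (SD, n = 3) for B2M through 63.0 ± 0.364 for HLA-E and 54.1 ± 1.08 for HLA-C down to 0.519 ± 0.0424 for PSMB9. OV3/COX1KD cells had the same order. HLA-B and PSMB8, neighbors in it, did not differ beyond their spread in OV3/SCR, at 3.85 ± 0.199 and 3.33 ± 0.361 CPM per kb of exon. Per kb of coding length PSMB9 was above TAP1 in OV3/SCR, at 2.64 ± 0.215 and 1.81 ± 0.129 CPM per kb of coding length.

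The make-up of the measured heavy chain mRNA did not overlap between conditions for HLA-C and HLA-E. HLA-C held 45.0%, 44.4% and 44.8% of the length-scaled counts of HLA-B, HLA-C and HLA-E in OV3/SCR and 37.7%, 37.2% and 37.4% in OV3/COX1KD. HLA-E held 52.1 ± 0.410% in OV3/SCR and 59.4 ± 0.148% in OV3/COX1KD (SD, n = 3 each), and HLA-B 3.18 ± 0.125% and 3.14 ± 0.121%. The shares of a library are parts of one whole, so the HLA-C and HLA-E shares mirror each other and are not independent. The level of HLA-E itself did not pass the test (log2FC 0.089, edgeR FDR = 0.0130). The log2 ratio of the summed heavy chains to B2M, per exon length, was 0.41 ± 0.00816 in OV3/SCR and 0.29 ± 0.0259 in OV3/COX1KD (SD, n = 3 each). Per coding length it was -1.37 and -1.47, so its sign depends on the length used, while OV3/COX1KD was the lower by either. The exact permutation test gave p = 0.1, the smallest possible, for the HLA-C and HLA-E shares and the ratio to B2M, and p = 0.8 for the HLA-B share, or 0.133 and 0.8 after adjustment over the 4 measures.

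**Figure D4:**
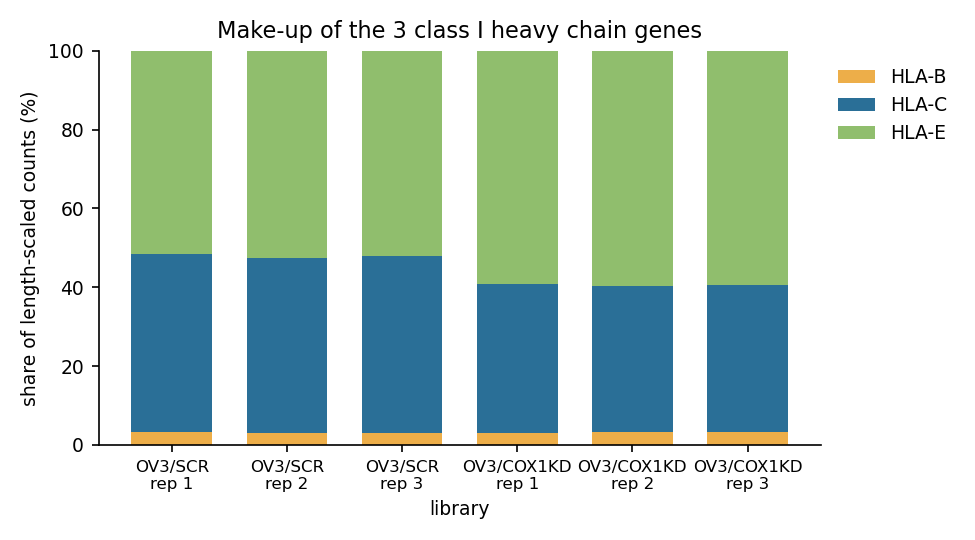
Share of HLA-B, HLA-C and HLA-E in their summed length-scaled counts (%) in each library. HLA-C took 44.4% to 45.0% in OV3/SCR and 37.2% to 37.7% in OV3/COX1KD, while the HLA-B share stayed near 3%.

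Some reads of these genes cannot be assigned with certainty. Of the distinct transcript stretches of 50 bases, 1.75% of those of HLA-B, 5.46% of HLA-C and 4.01% of HLA-E occur exactly in other HLA genes of the annotation. Over all other genes the share was 41.4% for HLA-B, 27.9% of its stretches being shared with DHFRP2, a gene that overlaps its exons. It was 21.7% for TAPBP, 18.5% for TAP2, 14.9% for PSMB8, 12.8% for TAP1, 5.79% for HLA-C, 5.19% for HLA-E, 2.84% for PSMB9 and 0 for B2M. For TAPBP, 18.3% were shared with ENSG00000289100, which also overlaps its exons. Stretches shared by overlapping genes are the same bases of the genome and do not by themselves make the place of a read uncertain. They can leave its gene uncertain where both genes were annotated for counting. TAP1, TAP2, PSMB8 and PSMB9 share exon bases with genes that had a row among the counts. How reads on such bases were counted is not given, and their effect on the counts was not tested. DHFRP2 and ENSG00000289100 had no row among the counts. The HLA counts come from reads placed on the hg19 reference, and OVCAR-3's own HLA alleles were not examined. The antisense gene PSMB8-AS1 covers 17.3% of the exon length of PSMB8 and 14.2% of that of TAP1 on the opposite strand and 5.21% of that of PSMB9 on the same strand, and had 6, 12 and 15 counts in OV3/SCR and 2, 7 and 7 in OV3/COX1KD. PSMB8 and PSMB9 overlap each other by 139 exon bases on opposite strands. ENSG00000250264, a transcript model that reads through TAP2, covers 19.5% of its exon length on the same strand and had 1 count or none in each library. Since reads on the shared bases may not have been counted for it, these counts do not give its level.

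Of 8 loading and trimming partners, 6 rose, 1 fell and 1 did not pass the test, with a median log2FC of 0.39. This count, and those of the lists that follow, stand against 25.8% higher and 22.1% lower among all tested genes, and no list was tested. The chaperone calreticulin gene CALR went from 600 ± 4.04 to 982 ± 6.61 CPM (SD, n = 3 each), a log2FC of 0.71 (SE 0.027, edgeR FDR = 2.1e-14). The oxidoreductase gene PDIA3 had a log2FC of 0.65 (SE 0.029, edgeR FDR = 2.1e-13) and the tapasin-related editor gene TAPBPL one of 0.63 (SE 0.12, edgeR FDR = 1.8e-04). ERAP2, a peptidase that trims peptides in the endoplasmic reticulum, was the gene that fell (log2FC -0.44, edgeR FDR = 0.00209), a call lost without OV3/SCR replicate 1 (edgeR FDR = 0.0260).

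Of 8 further proteasome genes, 1 rose, 2 fell and 5 did not pass the test, with a median log2FC of -0.054. The subunits of the interferon-induced proteasome activator moved apart, PSME1 with a log2FC of 0.48 (SE 0.032, edgeR FDR = 1.3e-10) and PSME2 with -0.26 (SE 0.030, edgeR FDR = 4.3e-07). POMP, which helps to assemble proteasomes, fell by 0.20 on the log2 scale (edgeR FDR = 1.4e-04). Of 5 other class I and class I-like genes, the neonatal Fc receptor gene FCGRT rose (log2FC 0.41, edgeR FDR = 5.6e-04) and the iron regulator gene HFE fell (-0.59, edgeR FDR = 0.00754), while 2 did not pass the test and 1 was too low to be tested, and the median log2FC was -0.34. The call of HFE was lost with DESeq2 (adjusted p = 0.0255) and without any 1 of 4 libraries (OV3/SCR replicate 1 or 2, OV3/COX1KD replicate 1 or 3).

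Of 15 transcription regulators of class I genes, 3 rose, 3 fell and 9 did not pass the test, with a median log2FC of 0.028. Neither count is above the share among all tested genes, 25.8% higher and 22.1% lower, and they are no result about the list. NLRC5, the transactivator of class I genes, had 105, 126 and 109 counts in OV3/SCR and 57, 74 and 66 in OV3/COX1KD, a log2FC of -0.75 (SE 0.14, edgeR FDR = 1.5e-04). IRF1 had 411, 416 and 424 counts in OV3/SCR and 192, 204 and 226 in OV3/COX1KD, a log2FC of -0.98 (SE 0.075, edgeR FDR = 9.8e-10), and IRF9, a part of the interferon-activated factor ISGF3, one of -0.92 (SE 0.17, edgeR FDR = 9.0e-05). For these 3 genes every OV3/COX1KD library lay below every OV3/SCR library, while 63.2% of tested genes showed no overlap in either direction. The genes that rose were subunits of NF-Y, which binds the same promoters. NFYA had a log2FC of 0.21 (edgeR FDR = 0.00362), a call lost with DESeq2, with total count scaling and without any 1 of 4 libraries (OV3/SCR replicate 2 or 3, OV3/COX1KD replicate 1 or 3). NFYB and NFYC, named after their values were seen, had log2FC of 0.21 (edgeR FDR = 0.00109) and 0.17 (edgeR FDR = 0.00541). With a replicate block they had an edgeR FDR of 0.00108 and 0.00753, and the other alternatives were examined for NFYA alone of these subunits.

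Of 8 interferon receptor and kinase genes, 1 rose, 4 fell and 3 did not pass the test, with a median log2FC of -0.25. The kinase genes TYK2 and JAK1 had log2FCs of -0.65 (edgeR FDR = 1.0e-10) and -0.55 (edgeR FDR = 9.4e-10), and JAK2 had -0.32 (edgeR FDR = 0.00279), a call lost with DESeq2 and without any 1 of 3 libraries (OV3/SCR replicate 1 or 3, OV3/COX1KD replicate 3). IFNGR2, a chain of the interferon gamma receptor, rose by 0.46 (edgeR FDR = 4.3e-07). Its other chain IFNGR1, named after its values were seen, fell, with a log2FC of -0.30 (edgeR FDR = 3.1e-06).

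Of 18 listed genes known to be induced by interferon, 16 were tested, 4 rose, 4 fell and 8 did not pass the test, with a median log2FC of 0.033. Both counts are near the shares among all tested genes, 25.8% higher and 22.1% lower, and are no result about the list. The GTPase gene GBP2 went from 17.1 ± 0.611 to 44.3 ± 1.36 CPM (SD, n = 3 each), a log2FC of 1.38 (edgeR FDR = 2.4e-14), and IFITM3 and UBE2L6 rose by 0.85 (edgeR FDR = 6.9e-11) and 0.81 (edgeR FDR = 1.2e-13). OAS3, a sensor of double-stranded RNA, had a log2FC of -0.81 (edgeR FDR = 1.1e-09).

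**Figure D5:**
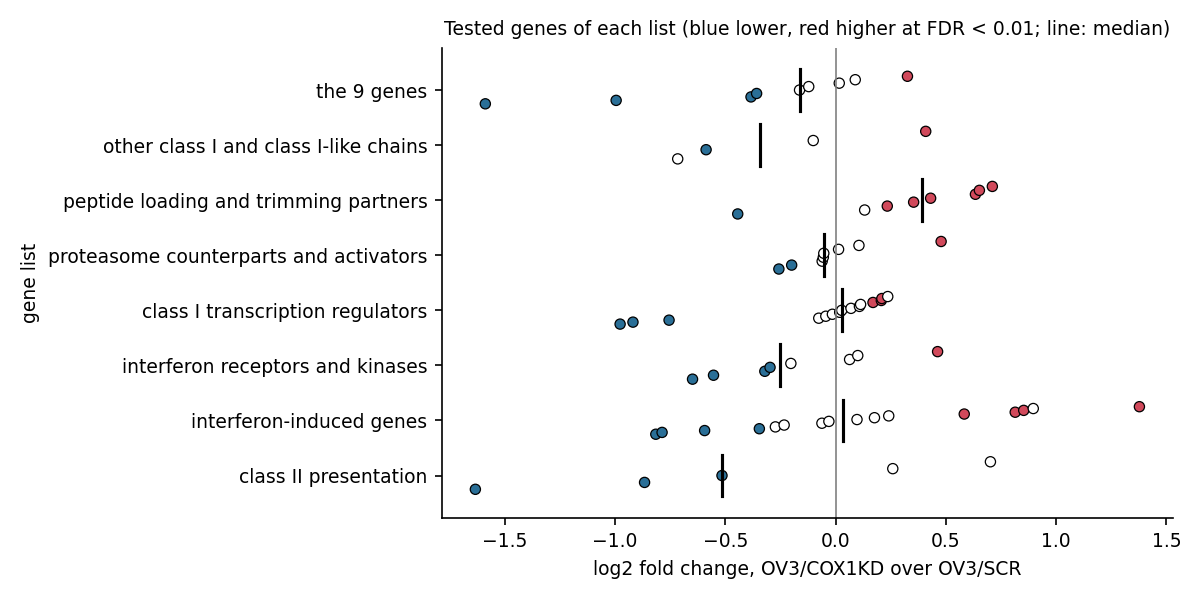
Log2 fold change of OV3/COX1KD over OV3/SCR for the tested genes of each list (points, blue lower and red higher at an edgeR FDR under 0.01, open otherwise) with the list's median as a line. Loading and trimming partners had a median of 0.39 and the 9 genes one of -0.16.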

How the data were processed

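RNA-seq counts of 3 OV3/SCR and 3 OV3/COX1KD libraries were used. Reads were placed on hg19 by the authors with TopHat2, who deposited raw counts per gene from HTSeq, without normalization. The submitters' processing notes give TopHat2 version 2.0. The annotation, the strand setting and the read length are not given in the sources used here. Groups and replicate numbers came from the sample titles.

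The analysis used edgeR 4.0.16 under R 4.3.3: TMM scaling, filterByExpr (17309 of 34811 genes), glmQLFit and glmQLFTest on condition alone, with p-values adjusted by Benjamini-Hochberg over all kept genes. The standard error was the log2 fold change divided by the square root of F. The study's thresholds were used, an FDR under 0.01 and, where stated, a fold change above 2.5. Libraries of 1 condition differed by more than sampling noise (chi-square per degree of freedom 1.82 to 6.40, the highest for OV3/COX1KD replicate 2). Same-numbered libraries deviated together with correlations across genes of 0.0045, 0.042 and 0.0090, so the numbers were not taken as pairs. The floor of 3 counts was 0.110 to 0.119 CPM, for counting error only.

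Positions and lengths came from GENCODE 44 on GRCh37, the build of hg19, and promoter windows from RefSeq on GRCh38.p14. The scripts were tested on simulated data. Members, gene lists and tests were chosen with earlier results of these data known. The text names all 9 genes, PTGS1, the proteasome counterparts, NLRC5, and from each list up to 4 genes with the largest change at an FDR under 0.01 and a mean log2 CPM of at least 1. Alternatives were RLE and total count scaling, other filters, DESeq2 1.42.0, a replicate block, leaving out each library, a pseudocount of 1 in ratios and coding length.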

Additional observations from a re-analysis of the deposited data

How the results depend on the processing

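HLA-C, TAP1, PSMB9 and TAPBP kept their direction and call under every alternative. The call of PSMB8 was lost without OV3/SCR replicate 2 or OV3/COX1KD replicate 3 (log2 fold change -0.43 to -0.29 over left-out libraries). HLA-E passed without the filter on low counts (0.11) and without OV3/COX1KD replicate 2 (0.083 to 0.10 over left-out libraries), which made 2 genes higher in place of 1 (range 1 to 2), and had 0.011 with total count scaling. TAP2 passed with total count scaling (-0.24). B2M turned to -0.061 with total count scaling and -0.00039 with at least 10 counts in every library, and PSMB7 to -0.064 and -0.0035 there and to -0.0055 without OV3/COX1KD replicate 3 (-0.0055 to 0.054 over left-out libraries). Total count scaling lowered the share of higher genes among all calls from 53.9% to 41.0%. Genes lower with a fold change above 2.5 went from 405 to 228 with at least 10 counts in every library, a filter that removes genes near 0 in 1 condition. With coding length the difference in share was -6.86 percentage points for HLA-C and 6.99 for HLA-E, against -7.30 and 7.34, and the log2 ratio of heavy chains to B2M turned from 0.41 and 0.29 to -1.37 and -1.47. The replicate block left 3796 genes lower and 4437 higher, against 3820 and 4473, and changed no call of the 9 genes. The causes of these changes were not tested unless stated. Of the 9 genes PSMB9 had the fewest counts, 11 to 49, and the largest standard error, 0.26.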

Other observations

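Class II presentation genes, which carry peptides to helper T cells and are usually scarce in epithelial cells, were in part too low to be tested. Of 12 listed genes 11 had a row and 5 were tested, of which 3 fell and 2 did not pass the test, with a median log2FC of -0.51. Among all tested genes 22.1% were lower and 25.8% higher, and this list was not tested. The class II transactivator gene CIITA had 198, 199 and 173 counts in OV3/SCR and 118, 147 and 125 in OV3/COX1KD, which is a log2FC of -0.51 (SE 0.11, edgeR FDR = 4.9e-04). The other genes that fell, named after their values were seen, were the invariant chain gene CD74 (log2FC -0.87, edgeR FDR = 0.00130) and HLA-DRA (-1.63, edgeR FDR = 0.00493). Both had low counts. CD74 had 45, 43 and 52 counts in OV3/SCR and 24, 26 and 25 in OV3/COX1KD. HLA-DRA had 16, 16 and 10 counts in OV3/SCR and 1, 6 and 6 in OV3/COX1KD.

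Between the outermost of the 8 genes on chromosome 6 (30457286 to 33282061 of GRCh37) 91 other genes were tested. Of these, 23 were lower (25.3%) and 13 higher (14.3%) in OV3/COX1KD, with a median log2 fold change of -0.12, against 22.1% and 25.8% of all tested genes and a median of -0.0087. The genes whose log2 CPM followed HLA-B most closely over the 6 libraries were SIPA1L2 (Pearson's r = 0.991), TMEM161B-AS1 (0.984) and MOCS2 (0.977), a description with no p, since the libraries form 2 clusters by condition.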
